A study of Homo sapiens with 4 samples.

Results

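The genes described here are 31 genes of cholesterol and fatty acid synthesis and of its control by the sterol regulatory element-binding proteins (SREBPs). They are named from textbook pathways, but the list was drawn up with earlier results of these data known. Shares of the list set beside all tested genes are therefore descriptions only. The 31 genes were measured in SKOV3, an established human ovarian carcinoma cell line, on 4 Affymetrix expression arrays. The control group was SKOV3 cells that received no rhSTIP1, with 2 arrays, and the treated group was SKOV3 cells given rhSTIP1, also with 2 arrays. The labels name no other agent or genetic change, and rhSTIP1 was read as recombinant human STIP1, a cochaperone that organizes HSP70 and HSP90. The labels used here state no dose, duration, serum or culture density. SKOV3 is 1 cell line. No label says that arrays of one group stem from different cultures, and the spread behind each p-value may therefore be technical only. Of the 31 genes, 28 had at least 1 probe set annotated to that gene alone, and all 28 were bright enough to be tested among 12296 genes. CYP51A1 and FADS1 lay only on probe sets annotated to more than 1 gene and are given no value, and FDFT1 was not analysed here.

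Cells build cholesterol from acetyl-CoA through mevalonate, farnesyl diphosphate, squalene and lanosterol, and they build fatty acids from the same acetyl-CoA through malonyl-CoA. SREBPs are transcription factors held in the endoplasmic reticulum by SCAP and the INSIG proteins when sterols are plentiful. When membrane cholesterol drops, SCAP escorts them to the Golgi, where proteases free the part that enters the nucleus and raises transcription of the synthesis genes. SREBF2 encodes the form that acts mainly on sterol genes, and SREBF1 the forms that act more on fatty acid genes. Because the genes share this control, their transcripts are known to rise and fall together with the sterol, lipid and serum supply of a culture.

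Promoter sequence from RefSeq, build GRCh38.p14, was matched by symbol for 27 of the 31 genes (37 start sites), and the 250 bases before each start were searched on both strands. NF-Y, a factor that acts beside SREBPs, binds the CCAAT box. The letters CCAAT or their complement were present before at least 1 start of 19 of 27 genes (70.4%), against 37.0% of all 27305 genes in the promoter table, coding or not. By start site the counts were 23 of 37 and 32.0% of all 35116. GGGCGG, the GC box, was before at least 1 start of 26 of the 27 genes and of 46.2% of all genes, and the E-box CACGTG of 3 and of 7.73%. TCACNCCAC, the core of the sterol regulatory element with 1 free base, was found for only 1 of the 27, SREBF2, as TCACCCCAC, and for 1.09% of all genes. A match is a description of these letters only, and their absence from a short window shows nothing about binding.

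Of these windows, 10 of different genes overlap no annotated gene, and 9 of the 10 hold a CCAAT box. They include all 6 of genes that were at least 1.5-fold lower on control array 2 than on control array 1 (HMGCS1, MVD, MSMO1, NSDHL, LSS and HSD17B7) and 3 of the 4 others (EBP, SCD and SC5D, but not SREBF1). Printed here are 5 of the 10, 5′ to 3′ on the gene's own strand and ending at the base before the start, with CCAAT boxes on either strand in capitals. They were picked after the values were seen, to show the box in HMGCS1 and NSDHL, which had that difference on their brightest probe sets. EBP and SCD, which did not have it on theirs, also hold the box, and SREBF1 lacks it. For SCD the dimmer probe sets did have that difference, with log2 differences of −1.05, −1.21 and −1.38 between the controls.
HMGCS1, chr5:43313413-43313662, minus strand: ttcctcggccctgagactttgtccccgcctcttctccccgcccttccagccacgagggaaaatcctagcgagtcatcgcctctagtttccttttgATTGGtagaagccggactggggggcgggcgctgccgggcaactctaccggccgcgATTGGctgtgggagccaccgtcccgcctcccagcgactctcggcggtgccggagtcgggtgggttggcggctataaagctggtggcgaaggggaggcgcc
NSDHL, chrX:152830813-152831062, plus strand: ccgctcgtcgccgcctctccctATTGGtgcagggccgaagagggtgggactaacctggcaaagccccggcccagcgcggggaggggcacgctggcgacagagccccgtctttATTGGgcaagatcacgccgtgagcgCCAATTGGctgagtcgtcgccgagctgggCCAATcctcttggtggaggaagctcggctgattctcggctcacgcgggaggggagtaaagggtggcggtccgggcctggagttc
EBP, chrX:48521558-48521807, plus strand: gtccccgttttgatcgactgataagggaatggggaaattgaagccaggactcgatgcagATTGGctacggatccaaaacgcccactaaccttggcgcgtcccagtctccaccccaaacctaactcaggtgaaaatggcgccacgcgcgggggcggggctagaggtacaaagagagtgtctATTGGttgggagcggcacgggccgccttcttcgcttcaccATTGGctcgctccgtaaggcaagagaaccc
SCD, chr10:100346983-100347232, plus strand: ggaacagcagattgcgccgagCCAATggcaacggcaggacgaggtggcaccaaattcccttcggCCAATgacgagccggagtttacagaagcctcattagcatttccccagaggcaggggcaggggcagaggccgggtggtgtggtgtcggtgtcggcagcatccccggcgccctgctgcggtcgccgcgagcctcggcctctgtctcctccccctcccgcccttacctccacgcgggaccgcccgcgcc
SREBF1, chr17:17836987-17837236, minus strand: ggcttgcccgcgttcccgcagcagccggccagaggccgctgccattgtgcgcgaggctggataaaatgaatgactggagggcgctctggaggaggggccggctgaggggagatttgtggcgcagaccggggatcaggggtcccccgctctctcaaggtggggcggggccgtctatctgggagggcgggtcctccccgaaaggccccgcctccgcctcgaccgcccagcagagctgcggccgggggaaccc
The HMGCS1 stretch holds 2 CCAAT boxes, NSDHL 5, of which a pair overlap, EBP 3 and SCD 2. Over all start sites, 14 of the 16 genes with a promoter and that difference had a CCAAT box. Of the other 9 tested genes with a promoter, 5 had one. This grouping used the brightest probe set of each gene, was made after the values were seen and was not tested.

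The arrays carried epithelial carcinoma markers and only dim markers of other cell types. The ovarian origin is taken from the name of the line. All 8 epithelial carcinoma markers reached 69.4, the mean signal at which genes were tested, among them ERBB2, PAX8 and KRT18, although WT1 only just did, at 86.0. None of the leukocyte, hepatocyte or adipocyte markers measured did, while 3 of 4 fibroblast markers and PECAM1 of 3 endothelial ones lay above it with mean signals of at most 208. Summed epithelial signals ran from 49427 to 55230 over the 4 arrays. In such bulk RNA, fewer cells of a type and less RNA per cell cannot be told apart. ACTB probe sets at the 3′ and 5′ ends of the transcript, compared as a check of RNA integrity, gave a ratio of 8.79 on rhSTIP1 array 2 and of 2.45 to 2.74 on the others. The same ratio for GAPDH was 1.32 on rhSTIP1 array 2 and 0.987 to 1.16 on the others. The part of these ratios in the values below was not tested.

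For 19 of the 28 genes (67.9%), the arrays differed more within both groups at once than the groups differed from each other. This held for 48.4% of all tested genes. A difference between 2 single arrays also varies more than one between means of 2 arrays. With each gene centred on its own mean over 4 arrays of log2(signal + 16), the median of the 28 genes was 0.77 on control array 1, 0.13 on rhSTIP1 array 1, −0.33 on control array 2 and −0.52 on rhSTIP1 array 2. The signals of 16 of 28 genes (57.1%) fell in exactly that order, against 5.6% of all tested genes. Control array 1 was the highest array for 22 of the 28, against 24.4% of all tested genes, and rhSTIP1 array 2 the lowest for 20, against 22.1%. For 21 of the 28 rhSTIP1 array 1 was above control array 2, against 46.9% of all tested genes, so an untreated array lay below a treated one.

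**Figure D1:**
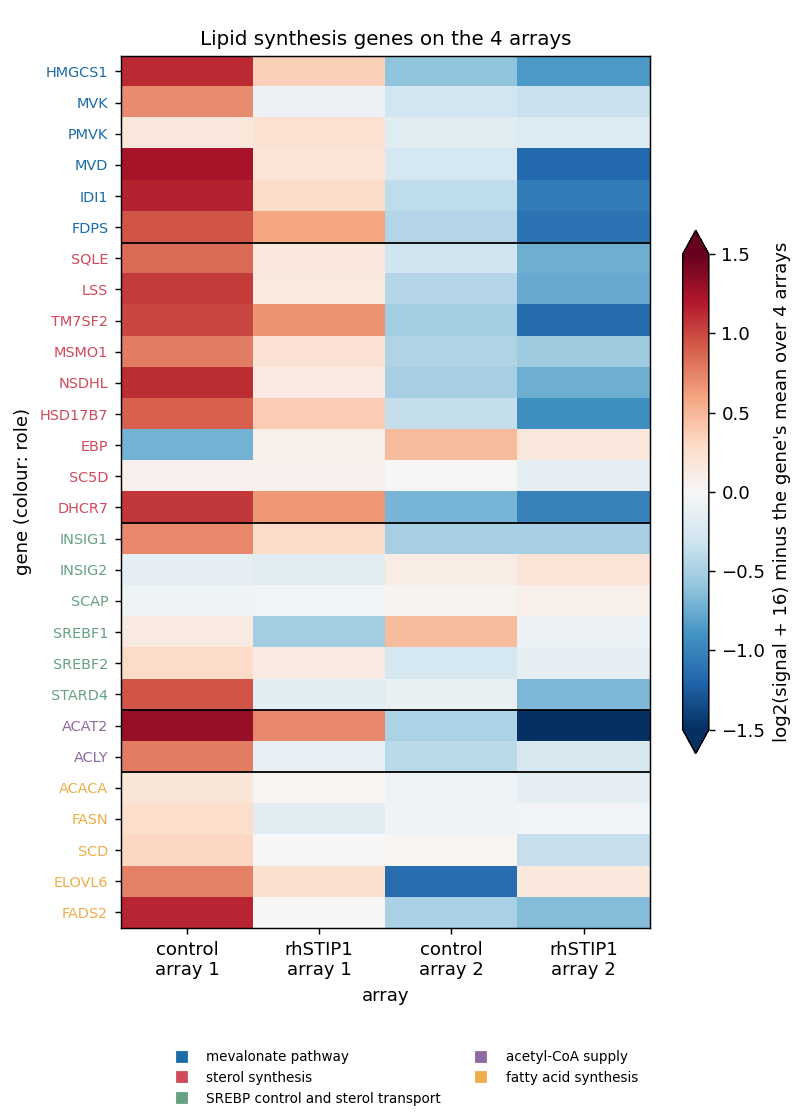
Each row is 1 of the 28 genes, coloured by role, and each column an array, with array 1 of both groups on the left. Colour gives log2(signal + 16) minus the gene's mean over the 4 arrays. Most mevalonate and sterol genes are red on control array 1 and blue on both array 2 columns, while SCAP, INSIG2, SC5D, ACACA and FASN stay pale.

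Control array 2 was at least 1.5-fold below control array 1 for 18 of 28 genes (64.3%), where 9.51% of all tested genes were. The median log2 difference was −1.19 over the 28 and 0.03 over all tested genes. rhSTIP1 array 2 was at least 1.5-fold below rhSTIP1 array 1 for 14 of the 28, against 8.55% of all, with medians of −0.58 and 0.04. All 14 were among the 18, and 2.84% of all tested genes were that much lower on array 2 in both groups. These are differences between single arrays, with no replicate and no test.

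**Figure D2:**
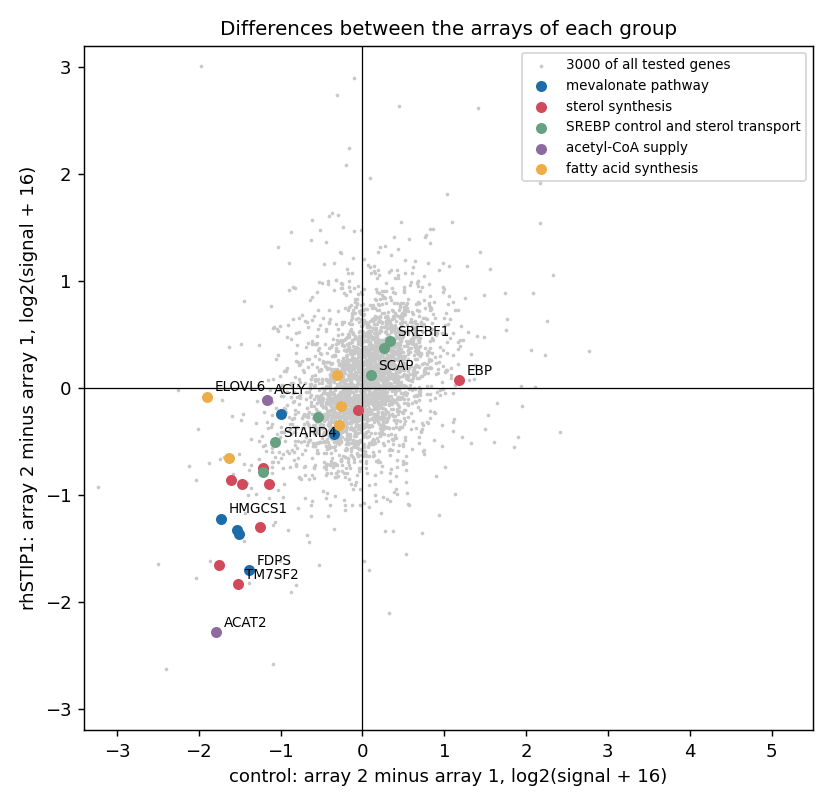
Each coloured point is 1 of the 28 genes, placed by array 2 minus array 1 of log2(signal + 16) in the control (horizontal) and rhSTIP1 (vertical) groups. Grey points are a sample of all tested genes. Mevalonate and sterol genes fill the lower left, with ACAT2 lowest at −2.28 in the rhSTIP1 group, while SCAP and SREBF1 lie above 0 on both axes.

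The mevalonate pathway showed the pattern in 5 of its 6 genes. HMGCS1, which makes HMG-CoA from acetyl-CoA units, had signals of 9179 and 2770 on control arrays 1 and 2 and of 5411 and 2309 on rhSTIP1 arrays 1 and 2 (values below keep this order of arrays 1 and 2). Array 1 was thus 3.30-fold above array 2 in the control and 2.33-fold in the rhSTIP1 group. FDPS, the farnesyl diphosphate synthase, had 16958 and 6487 untreated and 13270 and 4058 treated. Its treated array 1 lay far above its untreated array 2, and the groups overlapped.

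IDI1, which interconverts the isoprene units, had 14173 and 4872 untreated and 7690 and 3052 treated. MVD, the decarboxylase of the pathway, had 679 and 229 and then 321 and 115. In both genes array 1 was more than 2.5-fold above array 2 in each group, 2.90-fold and 2.51-fold for IDI1 and 2.84-fold and 2.57-fold for MVD. MVK, the mevalonate kinase, was high on control array 1 at 1802 and close on the other arrays, at 893, 1027 and 867. PMVK, the kinase of the following step, was the exception, with 1484 and 1160 untreated and 1549 and 1145 treated, differences of less than 1.5-fold.

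Among the 9 genes of the sterol steps with values, 7 followed the same order of arrays. DHCR7, which catalyses the last step to cholesterol, had 4926 and 1446 untreated and 3723 and 1169 treated. Both array 1 values were more than 3-fold above the array 2 value of their group, by 3.38-fold and 3.15-fold. TM7SF2, a sterol reductase, had 2253 and 773 and then 1795 and 491, with a larger difference between the rhSTIP1 arrays (3.57-fold) than between the controls (2.88-fold).

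SQLE, the squalene epoxidase and a rate-limiting enzyme, had 10407 and 4709 untreated and 6516 and 3484 treated. LSS, which closes the rings to lanosterol, had 9662 and 3459 and then 5165 and 2772. NSDHL, which removes a methyl group together with MSMO1, had 3838 and 1246 and then 1933 and 1060. In these 3 genes the controls differed more (2.21-fold to 3.05-fold) than the rhSTIP1 arrays did (1.81-fold to 1.87-fold). MSMO1, a methyl sterol oxidase, had 19736 and 8476 untreated and 13448 and 7989 treated. The reductase HSD17B7 had 3783 and 1579 and then 2649 and 1064. Control array 1 was 2.33-fold and 2.38-fold above control array 2 for this pair.

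The remaining pair of sterol genes did not share the pattern. SC5D, the desaturase that acts just before DHCR7, was nearly level, at 13019 and 12510 untreated and 13027 and 11331 treated. EBP, the isomerase before it, was dim and ran the other way in the controls, 119 on array 1 and 290 on array 2, with 216 and 229 in the rhSTIP1 group.

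Supply of acetyl-CoA units showed the steepest difference of the 28 genes in the treated group. ACAT2, the cytosolic thiolase that joins acetyl-CoA units, had signals of 15665 and 4533 untreated and 10403 and 2128 treated. The rhSTIP1 arrays differed 4.86-fold and the controls 3.45-fold. ACLY, which splits citrate into acetyl-CoA, had 11248 and 4982 untreated but 6042 and 5602 treated. It was high on control array 1 only, and its rhSTIP1 arrays differed by 1.08-fold.

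The genes that control SREBP divided. INSIG1, an SREBP target that retains SCAP, had 5633 and 2417 untreated and 4151 and 2405 treated, the order of the sterol enzymes. STARD4, a carrier of sterol between membranes and also an SREBP2 target, had 3997 and 1905 untreated and 1844 and 1292 treated. Its rhSTIP1 arrays were both below the lower control, by a narrow margin for array 1.

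SCAP itself was level on all arrays, from 869.7 to 962, and INSIG2, the isoform known not to depend on SREBP, ran from 609 to 794. SREBF2 had 1341 and 917 untreated and 1199 and 991 treated, with array 1 above array 2 in both groups by less than 1.5-fold. SREBF1 had 945 and 1201 untreated and 593 and 811 treated. Unlike most of the enzymes it was higher on array 2 in both groups, and both treated arrays were below both controls.

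Fatty acid genes were mixed. FADS2, a desaturase of polyunsaturated fatty acids, had 2552 and 814 untreated and 1151 and 725 treated, the order of most sterol enzymes. Its array 1 was 3.09-fold above array 2 in the control and 1.57-fold in the rhSTIP1 group. ELOVL6, which lengthens palmitate, was low on control array 2 only, with 908 and 232 untreated and 629 and 594 treated. SCD, which makes oleate from stearate, had 12165 and 10010 and then 9829 and 7709, with both treated arrays below both controls.

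The enzymes that start and build the chain differed little between arrays on their brightest probe sets. ACACA, the acetyl-CoA carboxylase, had 2809 and 2344 untreated and 2515 and 2233 treated. FASN, the fatty acid synthase, had 1034 and 827 and then 763 and 834. The groups overlapped for both. A dimmer ACACA probe set, with 280 and 130 untreated and 321 and 144 treated, was lower on array 2 in each group. Its log2 differences were −1.02 in the control and −1.07 in the rhSTIP1 group.

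The series set out to compare cells with and without rhSTIP1, and in that comparison 23 of the 28 genes had a log2 fold change (rhSTIP1 minus control, on the log2(signal + 16) scale) below 0. The median was −0.39, with quartiles of −0.61 and −0.10, whereas 46.8% of all tested genes were below 0, with a median of 0.02. None of the 28 differed by limma's test without a replicate block. In that fit 0 of 28 had an adjusted p under 0.05 (background 0%) and 0 an unadjusted p under 0.05 (background 3.68%). Every adjusted p was 0.999. A limma fit that took the array numbers as pairs, which no label states, had 3 of 28 (10.7%) at an adjusted p under 0.05, against 2.01% of all genes. At an unadjusted p under 0.05 that paired fit had 14 of 28 (50%), against 9.21% of all genes. With 2 arrays against 2, an exact permutation test of 1 gene cannot go below 0.333. The groups did not overlap for 3 genes that were lower with rhSTIP1, 10.7% against a background of 14.9%, and for 0 that were higher, against 14%. The share of genes without overlap was thus no larger than in all genes tested. Differences between arrays 1 and 2 limit what that share can show. The order control 1, rhSTIP1 1, control 2, rhSTIP1 2 from high to low counts as overlap. In it, each treated array was below the control of the same number, and 16 of the 28 genes had it, against 5.6% of all.

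By role, the median log2 fold change was −0.51 for 6 mevalonate genes, −0.48 for 9 sterol genes and −0.60 for the 2 acetyl-CoA genes. It was −0.21 for 5 fatty acid genes and −0.12 for the 6 genes of SREBP control and transport. The 95% confidence intervals were wide. That of ACAT2 ran from −2.63 to 0.95 around −0.84 ± 0.77 (SE), and that of MVD from −2.33 to 0.39 around −0.97 ± 0.58, so both intervals held falls and rises. The controls differed from each other by more than the groups did for 25 of the 28 genes (89.3%), against 64.7% of all tested genes. For the rhSTIP1 arrays this held for 21 (75%), against 65.7%.

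**Figure D3:**
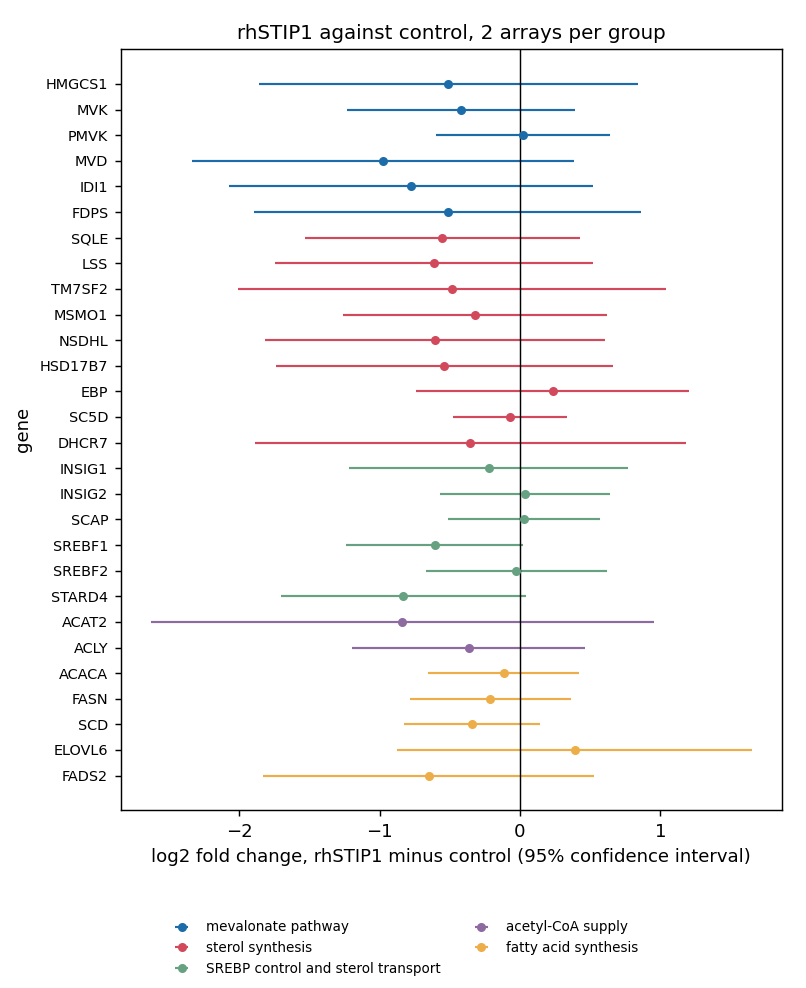
Points give the log2 fold change of each gene, rhSTIP1 minus control, and bars the 95% confidence interval from limma with 2 arrays per group. All 28 bars cross 0, and those of SREBF1 and STARD4 cross it least.

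The 3 genes without overlap were SREBF1, STARD4 and SCD. SREBF1 was 1.52-fold lower (−0.61 ± 0.27 SE, limma unadjusted p = 0.0564, adjusted p = 0.999), with a 95% interval from −1.24 to 0.02. STARD4 was 1.78-fold lower (−0.83 ± 0.37, unadjusted p = 0.0588, interval −1.70 to 0.04 in the same fit). These 2 of 28 (7.14%) were separated by at least 1.5-fold in the lower direction, where 3.79% of all tested genes were. SCD was 1.27-fold lower (−0.34 ± 0.21) on its brightest probe set. On its dimmer probe sets the groups overlapped, with log2 fold changes of −0.57, −1.09 and −1.35. When each array was centred on its median signal, only SREBF1 kept the groups apart.

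The direction of the whole set changed when single arrays were left out. Array 1 was above array 2 in both groups for 23 of 28 genes (82.1%), against 28.8% of all tested genes. Leaving out 1 array therefore also sets unequal array numbers against each other, and the 2 effects cannot be told apart here. Without control array 1 the median was 0.08 and 10 of 28 genes were below 0, and without rhSTIP1 array 2 it was −0.03 with 15 below 0. Leaving out control array 2 gave −0.94, and leaving out rhSTIP1 array 1 gave −0.65. SREBF1, STARD4, MVD, IDI1, FASN and SCD were below 0 whichever array was left out. For IDI1 the value nearest 0 was −0.01, without control array 1.

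The 28 genes had 61 probe sets of their own, 55 of them bright enough to be tested, and 15 genes had more than 1. Of the 27 tested probe sets that were not the brightest of their gene, 22 were lower on control array 2 than on control array 1 and 18 were lower on rhSTIP1 array 2 than on rhSTIP1 array 1. Of all 27307 probe sets tested, 43.6% and 46.1% were. The second DHCR7 probe set had 2655 and 870 untreated and 1731 and 630 treated, and the second NSDHL probe set 3377 and 1393 and then 2260 and 864. Both repeated the order of the brightest one. For INSIG1 all 3 probe sets had control array 1 highest, and for SQLE all 4 did.

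**Figure D4:**
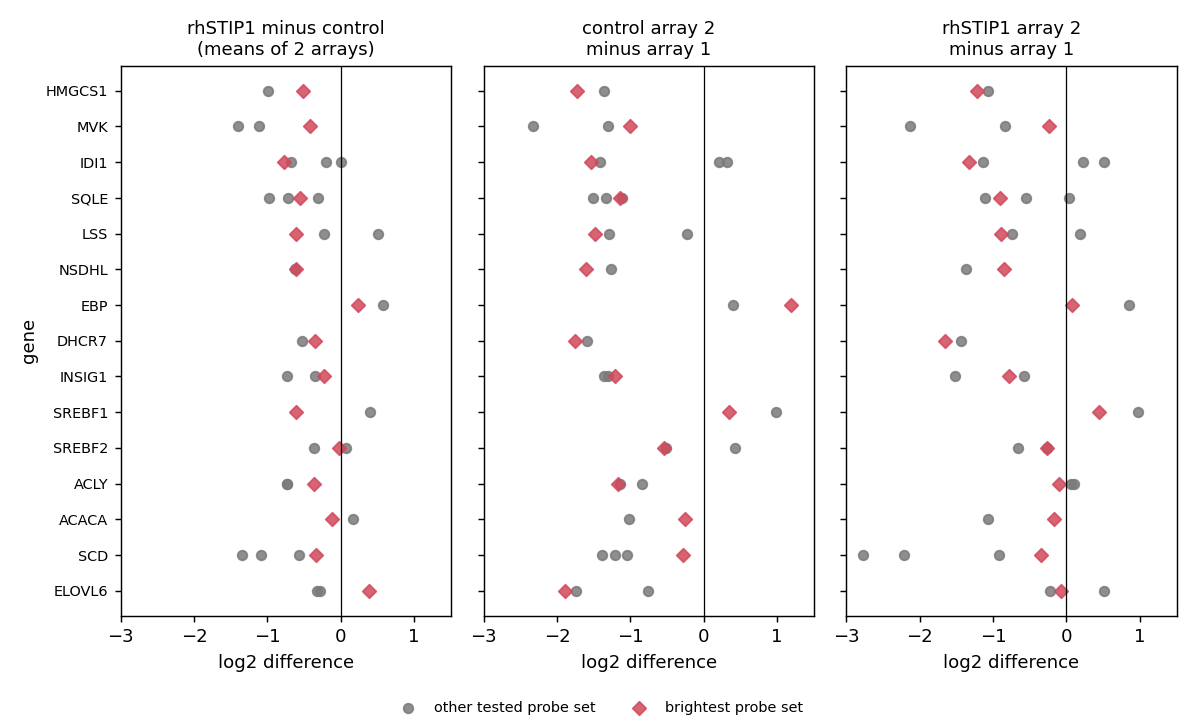
Each point is a probe set of the 15 genes with more than 1 tested, with the brightest as a red diamond and the others as grey circles. The panels give log2 differences of log2(signal + 16) for rhSTIP1 minus control, control array 2 minus array 1 and rhSTIP1 array 2 minus array 1. Probe sets of HMGCS1, NSDHL, DHCR7 and INSIG1 lie together left of 0 in every panel, while those of IDI1, SREBF1 and SCD spread apart.

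Probe sets disagreed for some genes. The brightest pair of IDI1 probe sets showed the pattern, but the 2 dimmer ones, with 336 and 163 on control array 1, were slightly higher on array 2 in both groups. The second SREBF1 probe set, with 47.3 and 109 untreated and 67.7 and 148 treated, had a log2 fold change of 0.40 ± 0.50 against −0.61 for the brightest, so the lower SREBF1 signal rests on 1 probe set. The dimmer ELOVL6 probe sets had −0.33 and −0.29 where the brightest had 0.39.

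ACLY, in contrast, was lower without overlap on both dimmer probe sets, each at −0.73, where the brightest overlapped. One of these had 2947 and 1638 untreated and 1286 and 1347 treated. The dimmest LSS probe set went the other way, higher without overlap, with 63.1 and 51.6 untreated and 81.5 and 94.5 treated, or 0.51 ± 0.39 where the brightest had −0.61. Of the 27 probe sets, 4 were lower without overlap and 1 higher, against 15.4% and 12.8% of all probe sets. The second MVK probe set had 1062 and 422 and then 407 and 220, a log2 fold change of −1.12 ± 0.47. It was the only probe set of the 55 with an unadjusted p under 0.05 in limma's fit, against 3.22% of all probe sets, and 0 of the 55 passed adjustment, against 0% of all.

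The SCD probe sets spread widely. The brightest had a difference of −0.35 between the rhSTIP1 arrays, and the dimmest a signal of 180 on rhSTIP1 array 1 and 12.7 on array 2, a difference of −2.77. MVK likewise had a dimmer probe set at 262 and 47.0 on those arrays. On the control arrays the same SCD probe set had 293 and 102, and the MVK one 767 and 140.

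Other genes of the pathway, from 4 lists of neighbouring functions, were set beside these. In the list of other lipid synthesis and fatty acid activation, 13 of 17 tested genes were below 0 with rhSTIP1 (median −0.14), against 46.8% of all tested genes. At least 1.5-fold lower were 8 on control array 2 and 3 on rhSTIP1 array 2, against 9.51% and 8.55% of all. Without overlap, 3 of the 17 were lower and 0 higher, against 14.9% and 14% of all. TMEM97, a sterol-regulated membrane protein, had the sterol pattern, at 10660 and 2548 untreated and 4048 and 1777 treated. LPIN1, a phosphatidate phosphatase and SREBP target, had 3783 and 1479 and then 1478 and 1037, both treated arrays below both controls, by less than 1 unit of signal for array 1.

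MID1IP1, which activates acetyl-CoA carboxylase, was the only gene of these lists with an unadjusted p under 0.05 in limma's test (background 3.68%). It had 1742 and 1147 untreated and 910.0 and 618 treated, or −0.90 ± 0.31 on the log2 scale (limma adjusted p = 0.999). ACSL4, an acyl-CoA synthetase, had −0.50 ± 0.31 with overlapping arrays.

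In the list of sterol export, esterification and LXR, 7 of 9 tested genes were below 0, against 46.8% of all, with a median of −0.04. At least 1.5-fold lower were 1 on control array 2 and 0 on rhSTIP1 array 2, against 9.51% and 8.55% of all tested genes. ABCG1, a sterol exporter that the oxysterol receptor LXR induces, had the reverse of the order of arrays seen in most synthesis genes. It had 34.8 and 349 untreated and 209 and 605 treated. Control array 1, where most enzymes were highest, was thus its lowest array and rhSTIP1 array 2 its highest. The signal of 34.8 is dim and may be background. That order of arrays was held by 9.68% of all tested genes, RNF139 and DHDDS among them, so it does not single out ABCG1. A link to LXR was not tested. The log2 fold change of ABCG1 was 1.45 ± 0.87 and the groups overlapped. MYLIP, another LXR target, did not mirror it, at 692.14 and 691.67 untreated and 587 and 413 treated. OSBPL5 was higher without overlap, as 14% of all tested genes were, at 0.36 ± 0.30. NR1H3, which encodes an LXR, had −0.14 ± 0.27.

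Sterol sensing and SREBP processing genes had a median of 0.07, with 7 of 12 tested above 0 and 5 below, where 46.8% of all were below. On array 2 of either group 0 were at least 1.5-fold lower, against 9.51% (control) and 8.55% (rhSTIP1) of all tested genes. Without overlap, 2 of the 12 were higher and 2 lower, against 14% and 14.9% of all. ERLIN2, which helps degrade sterol-regulated proteins, was higher in both treated arrays at 0.34 ± 0.22, its relative ERLIN1 lower in both at −0.22 ± 0.23, and RNF139 and NFYC had 0.28 ± 0.27 and −0.26 ± 0.27. The non-sterol branches of the mevalonate pathway, which use its products for protein prenylation, dolichol and ubiquinone, had a median of 0.08 over 12 genes. None of the 12 was at least 1.5-fold lower on control array 2, but 4 were on rhSTIP1 array 2, where 8.55% of all tested genes were. These were GGPS1, FNTB, COQ2 and RABGGTB, the last pair named after their values were seen. GGPS1, which makes geranylgeranyl diphosphate, had 4089 and 3448 untreated and 4067 and 2598 treated. FNTA, FNTB and DHDDS had log2 fold changes of −0.17 ± 0.18, 0.35 ± 0.37 and 0.22 ± 0.28. No gene of either list had an unadjusted p under 0.05 in limma's test, against 3.68% of all tested genes.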

How the data were processed

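RNA from SKOV3 cells was measured on 4 arrays, 2 per group. The submitters' processing notes name MAS5 and Expression Console 1.1, and the deposited table holds the resulting intensity of each probe set on a linear scale. These intensities had a 2% trimmed mean of 500.1 on every array and were not scaled further. The table used here gives no detection calls, so dim signals could be background, and precision is limited by having 4 arrays.

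Each gene took its brightest probe set among those with exactly 1 symbol in GEO's platform annotation (41091 of 54613, with 1801 holding several and 11721 none). Genes with a mean signal of at least 69.4, the median over probe sets, were tested with lmFit and eBayes (trend) of limma 3.58.1 in R 4.3.3 on log2(signal + 16). Tests were two-sided and p-values were adjusted by Benjamini and Hochberg's method over 12296 genes. The steps were tested on simulated data. Fold changes understate those of dim genes. Probe sets were fitted in the same way.

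The members and all gene lists were chosen with earlier results of these data known. All members with a value are named, and from each list of other genes the up to 4 with the smallest p. Other enzymes and targets of the pathway were not analysed here. Alternatives covered the pseudocount, filter, scaling, probe set choice, eBayes settings, the replicate number as a block and leaving out each array, where a lone array is assumed to vary like the other group's 2.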

Additional observations from a re-analysis of the deposited data

How the results depend on the processing

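With 2 arrays per group, leaving out an array reversed the direction of 22 of the 28 members at least once. The within-group contrast of arrays kept its direction under every alternative that used all 4 arrays. Genes with a limma adjusted p under 0.05 numbered 0, against 452 at an unadjusted p under 0.05. They numbered 1 with the filter at the 70th percentile, 2 with robust eBayes, 247 with the replicate block and 0 to 6 when an array was left out. Members at an unadjusted p under 0.05 numbered 0, but 1 with the 70th percentile filter, 1 with quantile normalization, 14 (50%) with the replicate block and 1 to 14 without an array. The share of all genes was 3.8%, 3.73%, 9.21% and 2.29% to 6.99% under the same settings. Members lower without overlap numbered 3, but 1 with median centring, 4 with quantile normalization and 4 to 23 without an array, where 10.1%, 13.6% and 30.2% to 33.3% of all genes were. The median over members ran from −0.94 to 0.08 and the members below 0 from 10 to 25 when an array was left out. The replicate block took array numbers as pairs, which no label states. Same-numbered arrays deviated together with r = 0.36 over all tested genes and 0.74 over the members, but 2 pairs do not settle a pairing. Under that block 3 members (10.7%) had an adjusted p under 0.05, IDI1, STARD4 and ACAT2, against 2.01% of all genes. SREBF2 turned to 0.030 with median centring and 0.0056 with quantile normalization. Averaging probe sets gave 0.026 for SC5D, 0.025 for ACACA, −0.074 for ELOVL6, 0.0054 for ACSL4, −0.0070 for DHDDS and 0.12 for FNTA. Leaving out each array in turn turned the sign of these genes, with lowest and highest log2 fold changes of HMGCS1 −1.37 to 0.35, MVK −0.92 to 0.078, PMVK −0.19 to 0.24, FDPS −1.37 to 0.34, SQLE −1.12 to 0.017, LSS −1.35 to 0.13 and TM7SF2 −1.40 to 0.44. Likewise the range was MSMO1 −0.93 to 0.29, NSDHL −1.41 to 0.20, HSD17B7 −1.19 to 0.11, EBP −0.36 to 0.83, SC5D −0.17 to 0.030, DHCR7 −1.23 to 0.53 and INSIG1 −0.83 to 0.38. Further ranges were INSIG2 −0.15 to 0.22, SCAP −0.029 to 0.090, SREBF2 −0.30 to 0.25, ACAT2 −1.98 to 0.30, ACLY −0.95 to 0.22, ACACA −0.24 to 0.015 and ELOVL6 −0.56 to 1.34. The last of these were FADS2 −1.47 to 0.16, RNF139 −0.034 to 0.59, TMEM97 −1.98 to 0.074, NR1H3 −0.37 to 0.083, GGPS1 −0.53 to 0.11 and FNTB −0.0038 to 0.71. The causes were not tested. Probe sets near 69.4 may be background, which limits ABCG1, EBP and the dimmer probe sets.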
